A study of Homo sapiens with 6 samples.

Results

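hsa-miR-1260a and hsa-miR-1260b, written below without the species prefix, are 2 of the 2588 mature miRNA entries measured in exosomes. The exosomes came from HCT116, a human colorectal carcinoma line in wide use. They were chosen by name, because both were nearly absent from the siCTL libraries and present in the siPRDX3 libraries. The tested libraries came from cells given an siRNA against PRDX3 (siPRDX3, n = 3), a mitochondrial peroxiredoxin that removes hydrogen peroxide, and their controls from cells given a control siRNA (siCTL, n = 3). In both groups the siRNA was delivered by microporation. At 40 h after transfection the cells then spent 24 h in medium with 10% nanoparticle-depleted serum. The exosomes were isolated from that medium with a kit. The design text also has a sentence on another siRNA and endothelial cells, which disagrees with the sample titles and with the stated cell line, and the titles were followed. PRDX3 mRNA is not read by a miRNA assay, so the knockdown could not be checked. Whether replicate libraries stem from separate cultures is not labelled, so their spread may be purely technical.

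A mature miRNA is a short RNA cut from a hairpin precursor, and its seed, bases 2 to 8, leads it to target mRNAs. Cells also hold fragments of transfer RNA of similar length, and a mature transfer RNA ends in the bases CCA, which an enzyme adds after transcription. The miR-1260 entries are often described as resembling the 3′ end of a leucine transfer RNA, so reads given to them need not come from their own hairpins. miR-1260b has also been reported to repress SFRP1, a secreted Wnt antagonist.

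The mature sequences are shown because the result rests on entries that differ at so few bases. They are from RefSeq on GRCh38.p14, written 5′ to 3′ with the seed in capitals.
miR-1260a, chr14:77266231-77266248, plus strand: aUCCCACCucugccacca
miR-1260b, chr11:96341447-96341465, plus strand: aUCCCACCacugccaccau

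Counted from the 5′ end, the first 8 bases are identical and the only substitution in the 18 shared positions is U9A, with the base of miR-1260a first. miR-1260b also carries 1 extra U at its 3′ end. The seed UCCCACC is therefore common to both, and they were the only 2 of the 2281 table entries with a RefSeq sequence that carry it. The nearest other entries lay 6 edits away from each of them: miR-7975 and miR-7977 for both, and miR-6763-3p for miR-1260a. All of these had 0 reads in the 6 libraries, so no further entry of this sequence was seen here. The letters GCCACCA, searched on the given strand of the mature sequences, occur in 4 of the 2281 entries (0.175%) and stand at the very end of 1 entry, miR-1260a.

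The stretches around the mature sequences, with the mature part in capitals, show the bases that flank it in each precursor.
miR-1260a, chr14:77266225-77266254, plus strand: cagcucAUCCCACCUCUGCCACCAaaacac
miR-1260b, whole hairpin, chr11:96341438-96341526, plus strand: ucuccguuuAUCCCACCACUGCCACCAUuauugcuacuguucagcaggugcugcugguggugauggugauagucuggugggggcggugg

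In the GENCODE v29 annotation both hairpins lie antisense to an exon of a protein-coding gene. The miR-1260a hairpin (chromosome 14, 77266218 to 77266290, plus strand) lies opposite the 3′ UTR of NGB, which encodes neuroglobin and is on the minus strand. The miR-1260b hairpin lies opposite a coding exon of MAML2, a Notch coactivator that is also on the minus strand. The miR-1260a hairpin is 73 bases long and was predicted to fold weakly, with a minimum free energy of −20.2 kcal/mol. Per base, only 4.62% of 1560 RefSeq hairpins were predicted to be less stable. The 89-base hairpin of miR-1260b reached −41.1 kcal/mol, and 53.1% of hairpins were less stable per base. In the predicted structures 12 of 18 mature bases were paired in miR-1260a and 17 of 19 in miR-1260b. With 18 and 19 bases both are short, since the median entry has 22 bases and 9.12% of entries have 19 or fewer. The 17 bases on which the entries agree, with any base at position 9, were found in 2 of 206694 annotated transcripts, the hairpins themselves. None of the 22 mitochondrial transfer RNAs held them. The 17 bases end in CCA, which is added to a transfer RNA after transcription and need not stand in its gene. This search could therefore not decide whether a transfer RNA 3′ end matches. Nuclear transfer RNA sequences were not used here, so the likeness to transfer RNA stands as background and was not measured.

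The libraries were shallow. The siPRDX3 libraries held 230901, 96681 and 70677 miRNA reads and the siCTL libraries 40135, 80955 and 124732, recovered from the deposited log2 values. A shortfall in siCTL 1 and siCTL 2 went far beyond the miR-1260 pair: of the 80 entries with enough reads to be tested, 30 were empty in siCTL 1 and 23 in siCTL 2. siCTL 3 had reads of all 80, and results are therefore also given against siCTL 3 alone. Of the intestinal epithelial miRNAs, reads were found for 7 of 8, with miR-429 at 0. Together they took 0.0114% to 0.304% of siPRDX3 reads and 0.00494% to 1.16% of siCTL reads. Exosome data of this kind cannot tell fewer vesicles carrying an RNA from less of it per vesicle.

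Both entries were present in every siPRDX3 library and close to absent in every siCTL library. miR-1260b had 777, 330 and 204 reads in siPRDX3 1, 2 and 3, against 0, 0 and 5 in siCTL 1, 2 and 3. Its deposited log2 levels were 11.175, 11.192 and 10.421 in siPRDX3 and 0, 0 and 5.353 in siCTL. The siPRDX3 libraries lay close together and far above all controls. miR-1260a had 121, 341 and 217 reads in siPRDX3, against 0, 0 and 4 in siCTL. Its log2 levels were 8.495, 11.239 and 10.510 in siPRDX3 and 0, 0 and 5.040 in siCTL, so that siPRDX3 1 stood below the other siPRDX3 libraries and still above the highest control. These are the values for which the entries were chosen, and they are given as a description, with no test. On the log2 scale siPRDX3 exceeded siCTL by 9.14 (SE 2.14) for miR-1260b and by 8.40 (SE 2.24) for miR-1260a in limma's fit over the 80 entries. The size of these differences depends on the 1 that was added before taking logs. It also depends on the deposited scale. Before taking logs, its values summed to 686860, 684908 and 474714 in siPRDX3 1, 2 and 3. In siCTL 1, 2 and 3 they summed to 1005187, 1616283 and 994749. With library totals as the scale the differences were 9.86 for miR-1260b and 9.12 for miR-1260a.

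**Figure D1:**
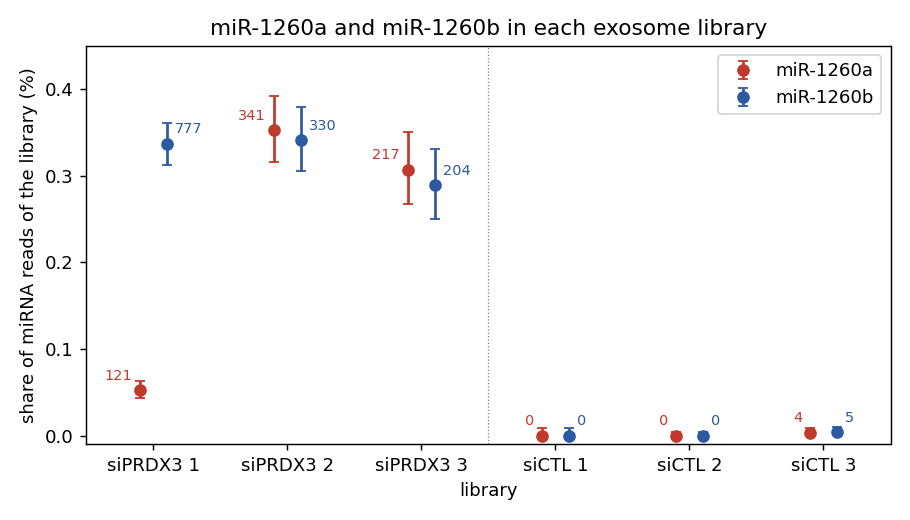
Share of each library's miRNA reads (percent, vertical axis) taken by miR-1260a and miR-1260b in the 3 siPRDX3 and 3 siCTL libraries. Points are shares, bars are exact 95% Clopper-Pearson intervals, and the numbers are reads; miR-1260b stays between 0.289% and 0.341% in siPRDX3, while miR-1260a is at 0.0524% in siPRDX3 1 and at 0.353% and 0.307% in siPRDX3 2 and 3.

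As shares of miRNA reads, the entries together made up 0.389% of siPRDX3 1 (exact 95% Clopper-Pearson interval 0.364 to 0.415), 0.694% of siPRDX3 2 (0.643 to 0.748) and 0.596% of siPRDX3 3 (0.540 to 0.655). The share was 0.00722% in siCTL 3 (0.0033 to 0.0137). For the counts of 0, a limit of 3 reads of the total was used, which is 0.00747% in siCTL 1 and 0.00371% in siCTL 2. The upper ends of the two-sided intervals lie somewhat higher, at 0.00919% and 0.00456%. The mean share was 0.560% ± 0.156 in siPRDX3 and 0.00241% ± 0.00417 in siCTL (SD, n = 3 each). At the lowest siPRDX3 share, siCTL 1, 2 and 3 would have held 156, 315 and 485 reads of the pair, where 0, 0 and 9 were seen. Measured against the limit of 3 reads, the siPRDX3 shares were at least 52.0-fold to 92.9-fold higher than in siCTL 1 and at least 105-fold to 187-fold higher than in siCTL 2. These bounds hold for that limit and would be lower against the interval ends. They also depend on the denominator, and would be lower with the reads of the entry miR-4451 left out. It took 62242 of 80955 reads in siCTL 2 and 27311 of 230901 in siPRDX3 1. Intervals and limits cover counting error only, since PCR copies without molecular identifiers are not independent molecules.

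Against siCTL 3 alone, the combined share was 53.9-fold higher in siPRDX3 1 (95% counting interval 28.3 to 118), 96.2-fold in siPRDX3 2 (50.4 to 211) and 82.6-fold in siPRDX3 3 (43.1 to 182). Across the 80 tested entries the median ratio of the mean siPRDX3 share to the siCTL 3 share was 1.03. By this ratio miR-1260b and miR-1260a, with 80.4 and 74.0, stood directly below the highest entry. That was miR-483-5p with 96.0, which rests on 1 read in siCTL 3 and had 1121 reads in siCTL 1. All 3 siPRDX3 shares were at least 10-fold above siCTL 3 for 4 of the 80 entries (5.0%), namely miR-483-5p, miR-1260b, miR-1260a and miR-574-5p. As the pair was picked partly for its low count in siCTL 3, this places it among the entries and is no test.

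**Figure D2:**
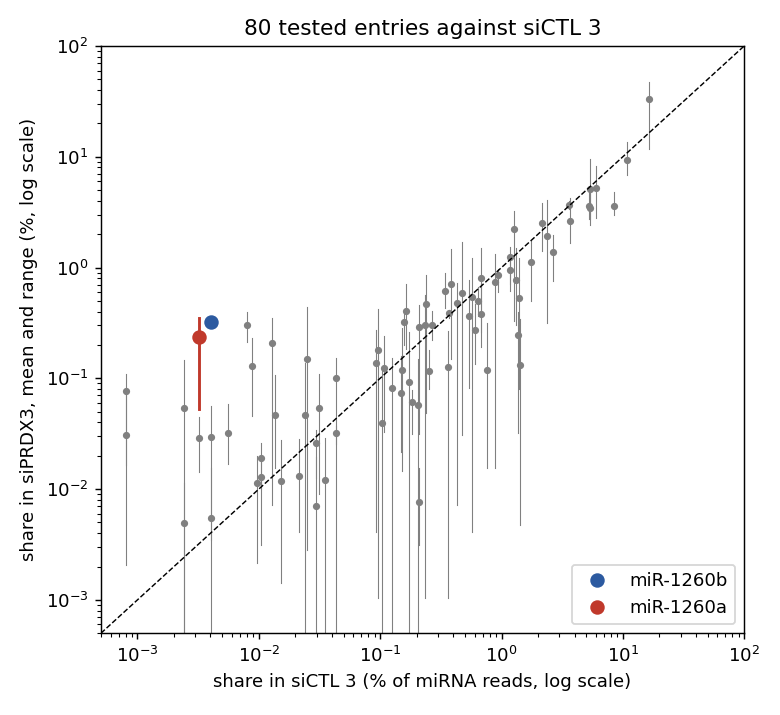
Mean share of reads in the siPRDX3 libraries (percent, vertical log axis) against the share in siCTL 3 (percent, horizontal log axis) for the 80 tested entries. Vertical lines span the lowest to the highest siPRDX3 library and run to the lower edge where a library had no read; the dashed line marks equal shares, and miR-1260a and miR-1260b lie far above it with ratios of 74.0 and 80.4.

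In the whole comparison, limma called 0 of 80 entries at an adjusted p of 0.05 (0.0%), with 6 at an unadjusted p under 0.05, and limma-voom with TMM factors over all entries with reads also called 0. Every siPRDX3 library lay above every siCTL library for 6 of the 80 entries on the deposited scale (7.5%) and for 10 as shares of reads (12.5%). Both miR-1260 entries were among them, which their choice had fixed. Entries read only in the 3 siPRDX3 libraries could pass the filter, which adds to such counts. With 4 libraries required, 1 of 53 entries was left on the deposited scale. On the deposited scale the 6 became 33 without siCTL 3 and 10 without siPRDX3 3. limma's calls depended on siCTL 3 as well, since 20 of the 80 entries passed without that library, the pair included. The pair's choice had all but fixed its place among these 20 entries, so its passing is no test. Without siCTL 1 and siCTL 2 together 0 passed, in a fit where siCTL 3 stands alone and is assumed to vary like the siPRDX3 libraries. The erythrocyte miRNAs, with reads for 4 of 5 and miR-144-3p at 0, together took 1.09% to 3.54% of siPRDX3 reads and 4.15% to 5.58% of siCTL reads. Their sum thus did not overlap between the groups, with siPRDX3 the lower. By single shares only miR-486-5p was apart in this way, while miR-451a and miR-486-3p overlapped. How many of the 80 entries had every siPRDX3 library below every siCTL library was not counted. Without that background the lack of overlap cannot be read as particular to the erythrocyte miRNAs. The liver miRNAs, with reads for 2 of 2, took 2.44% to 9.63% in siPRDX3 and 0.0593% to 5.35% in siCTL. The part of either in the miR-1260 result was not tested.

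Within siPRDX3 the near-identical entries did not move together. The share of miR-1260b was 0.337%, 0.341% and 0.289% in siPRDX3 1, 2 and 3, a highest-to-lowest ratio of 1.18. The median over the 80 tested entries was 6.84, and 10 of them had a siPRDX3 library at 0. The ratio of miR-1260b was not separable from the 1.20 of let-7f-5p and let-7c-5p, and its choice for presence in every siPRDX3 library favours a low value. The share of miR-1260a was 0.0524%, 0.353% and 0.307%, a ratio of 6.73. In siPRDX3 2 and 3 the intervals of both entries overlapped. In siPRDX3 1, the most deeply read library, miR-1260a alone was low, with an interval of 0.0435% to 0.0626%, against 0.313% to 0.361% for miR-1260b. By reads within a library miR-1260b ranked 39th of 334 detected entries in siPRDX3 1, 26th of 215 in siPRDX3 2 and 35th of 272 in siPRDX3 3. miR-1260a ranked 99th, 24th and 34th in the same libraries.

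The division of reads between the entries was not used to choose them. miR-1260a took 13.5% of the reads of both in siPRDX3 1 (121 of 898; exact 95% interval 11.3 to 15.9). It took 50.8% in siPRDX3 2 (341 of 671; 47.0 to 54.7) and 51.5% in siPRDX3 3 (217 of 421; 46.7 to 56.4). The intervals of siPRDX3 2 and 3 overlapped and siPRDX3 1 lay far below them, beyond counting error. In siCTL 3 the share was 44.4%, but 4 of 9 reads allow anything from 13.7 to 78.8, so no difference in division between the groups was detectable at this depth. Over the siPRDX3 libraries the mean was 38.6% ± 21.8 (SD, n = 3), and without siPRDX3 1 it was 51.2%. Expressed as a ratio, there were 0.156, 1.03 and 1.06 reads of miR-1260a per read of miR-1260b in siPRDX3 1, 2 and 3. How the authors divided reads that match both entries is not given in the sources used here.

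**Figure D3:**
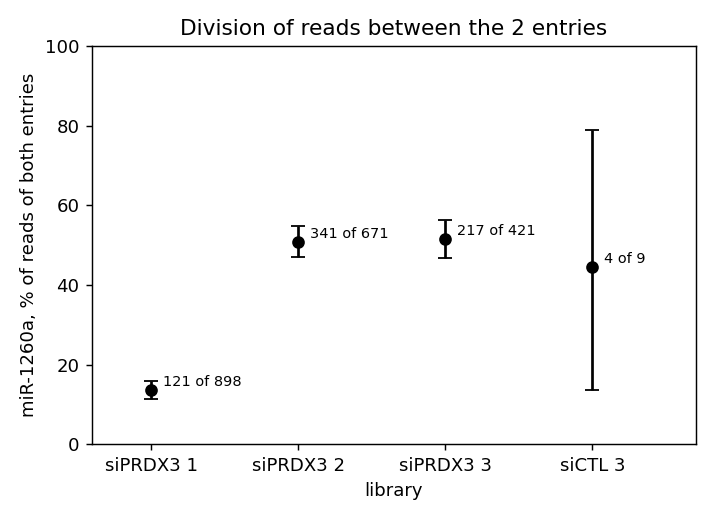
Share of miR-1260a in the reads of miR-1260a and miR-1260b together (percent, vertical axis) in the libraries that held any. Bars are exact 95% Clopper-Pearson intervals and labels give reads; siPRDX3 1 stands at 13.5%, siPRDX3 2 and 3 at 50.8% and 51.5%, and the interval of siCTL 3 spans 13.7 to 78.8.

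Other near-identical entries showed how much such a division can vary. Among entries with a RefSeq sequence, 18 pairs were at most 2 edits apart and had at least 30 reads together in each siPRDX3 library. The let-7 family, with its many close members, supplied 14 of them, so the pairs share entries. The share of the first entry spanned 38.1 percentage points across the siPRDX3 libraries for the miR-1260 pair, second to 57.8 points for miR-320c and miR-320d. There miR-320c took 33.7%, 61.0% and 91.5% in siPRDX3 1, 2 and 3. Of the other 17 pairs, let-7c-5p with miR-4510 had no siPRDX3 read of miR-4510 and so a span of 0 by construction. The remaining 16 had a median span of 6.42 points, and in 13 of them the intervals of the extreme libraries did not overlap. The order depends on the scale, because percentage points hardly move in a lopsided pair. As the ratio of reads of the first entry to the other, the miR-1260 pair varied 6.83-fold and stood 7th of the 17 pairs with reads of both entries in every siPRDX3 library. On that scale let-7f-5p with let-7g-5p varied most, 54.9-fold, and the median of the 17 was 3.23-fold. Divisions that differed between libraries beyond counting error were thus found in most of these pairs, the miR-1260 pair among them.

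**Figure D4:**
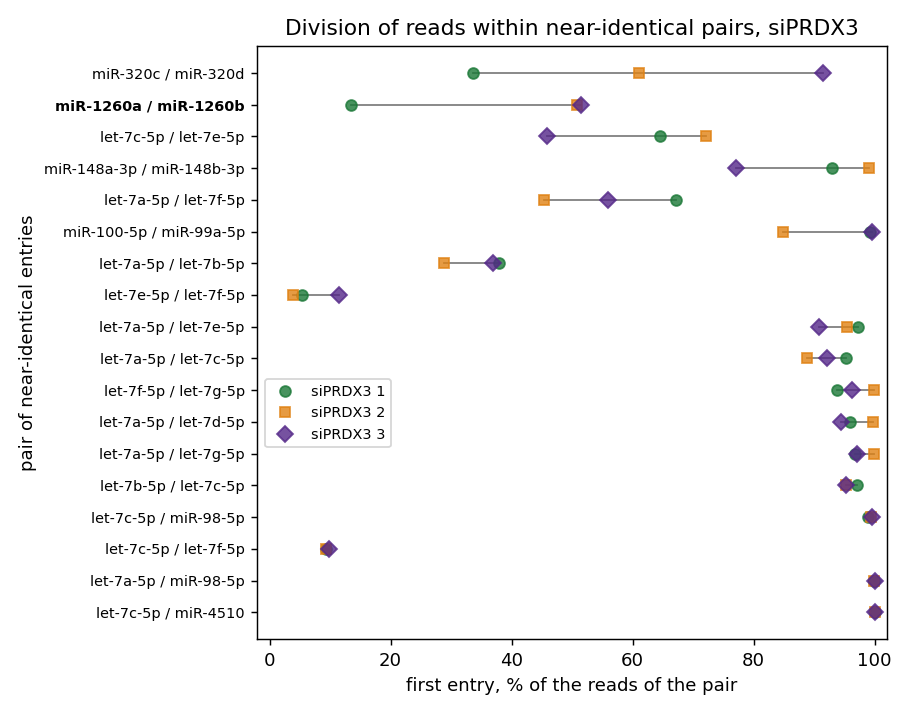
Share of the first entry in the reads of each of 18 near-identical pairs (percent, horizontal axis), with 1 marker per siPRDX3 library and grey lines spanning the libraries. Pairs run from the widest span in percentage points at the top to the narrowest; the miR-1260 pair spans 38.1 points, below miR-320c and miR-320d with 57.8.

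Other entries described as transfer RNA-like had almost no reads in either group. The list held 11 names besides the pair, of which 4 are in the deposited tables and 2 had reads. miR-4454 had 2, 0 and 1 reads in siPRDX3 1, 2 and 3 and 1, 1 and 3 in siCTL 1, 2 and 3. miR-5100 had 5, 0 and 0 reads in siPRDX3 and none in siCTL, while miR-7977 and miR-4521 were at 0 throughout. None had enough reads to be tested. The tables therefore hold no further well-read entry of this kind against which the pair could be set.

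The pair's levels over the 6 libraries correlated with each other at Pearson's r of 0.98. A high value was built in, because both entries were picked for the same contrast between these libraries. As the libraries share the empty siCTL 1 and siCTL 2, such values describe that common shape. Against the mean log2 level of the pair, the other 78 tested entries had a median r of 0.45. The closest was miR-941, a miRNA of the human lineage, with r = 0.97, 64, 43 and 10 reads in siPRDX3 and 0, 0 and 4 in siCTL. Next came miR-197-3p with r = 0.97, 258, 44 and 165 reads in siPRDX3 and 0, 0 and 11 in siCTL. The next 3 had more reads in siCTL 3 than these. miR-7-5p (r = 0.91), known to repress EGFR, had 726, 691 and 129 reads in siPRDX3 and 1, 1 and 205 in siCTL. miR-4516 (r = 0.91) had 861, 385 and 140 reads in siPRDX3 and 2, 3 and 196 in siCTL. miR-92b-5p (r = 0.88), from the opposite arm to miR-92b-3p, had 1548, 430 and 259 reads in siPRDX3 and 0, 0 and 793 in siCTL.

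**Figure D5:**
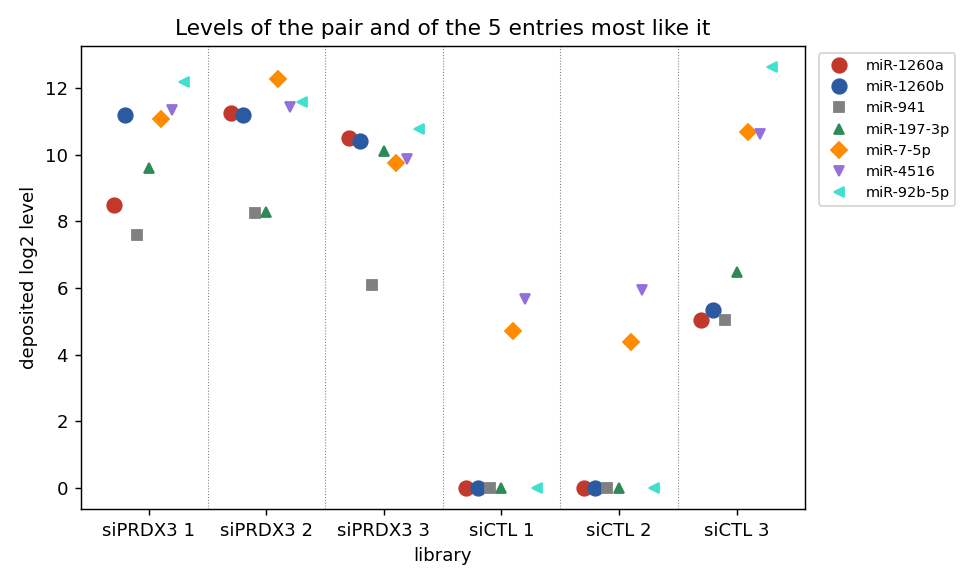
Deposited log2 levels (vertical axis) of miR-1260a, miR-1260b and the 5 tested entries with the highest correlation to their mean, in the 3 siPRDX3 and 3 siCTL libraries. All are lower in siCTL 1 and siCTL 2 than in any siPRDX3 library, while in siCTL 3 miR-1260a and miR-1260b stay at 5.040 and 5.353 and miR-7-5p, miR-4516 and miR-92b-5p are high.

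Of the 80 tested entries, 17 had no read in siCTL 1 and siCTL 2. Among those 17, 7 had at least 30 reads in each siPRDX3 library. They differed in siCTL 3, where the low counts of the miR-1260 pair were part of its choice. There miR-1260a, miR-1260b and miR-197-3p had 4, 5 and 11 reads, while miR-222-3p had 316, miR-92b-5p 793, miR-3529-3p 840 and miR-3196 1712. Among entries of similar siPRDX3 abundance the control levels were likewise mixed. miR-1260b was 34th by mean siPRDX3 share, at 0.322% ± 0.0291, and its neighbours did not differ from it beyond their spread. Just above were miR-92b-3p (0.366% ± 0.365 in siPRDX3, 0.183% ± 0.309 in siCTL) and miR-4516 (0.323% ± 0.109 in siPRDX3, 0.0553% ± 0.0882 in siCTL). Just below were miR-574-5p (0.303% ± 0.0897 in siPRDX3, 0.0105% ± 0.0119 in siCTL) and miR-92a-3p (0.301% ± 0.096 in siPRDX3, 0.166% ± 0.116 in siCTL). miR-1260b itself stood at 0.00134% ± 0.00231 in siCTL.

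miR-1260a was 41st, at 0.237% ± 0.162 in siPRDX3 and 0.00107% ± 0.00185 in siCTL. Its neighbours also lay within the spread of the siPRDX3 libraries. Above it were let-7e-5p (0.276% ± 0.170 in siPRDX3, 0.203% ± 0.345 in siCTL) and miR-3196 (0.246% ± 0.190 in siPRDX3, 0.458% ± 0.792 in siCTL). Below it were miR-106b-3p (0.225% ± 0.316 in siPRDX3, 0.00124% ± 0.00125 in siCTL) and let-7d-5p (0.208% ± 0.179 in siPRDX3, 0.008% ± 0.00458 in siCTL). Of these, miR-106b-3p also had almost no control reads, with 1, 1 and 0 in siCTL, but its siPRDX3 reads were uneven at 177, 10 and 416 (all ± values are SD, n = 3).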

How the data were processed

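The authors deposited 1 table per library with a log2 value for each mature miRNA entry. Per the submitters' processing notes, Bowtie2 and bedtools 2.25.0 were used, in roles they do not state. Build, annotation, scaling and the handling of multiply mapped reads are not stated in any source used. The values were read as log2(x + 1). In each library x takes whole multiples of a single step, the value of 1 read, and 100% of values of up to 100 reads were whole within 0.1. Reads of abundant entries are approximate.

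The deposited log2 values were fitted with limma 3.58.1 (R 4.3.3; trended variance, Benjamini-Hochberg threshold 0.05). Testing required 113 CPM, which is 10 reads in the median library, in 3 or more libraries, and 15 reads overall. Code was tested on simulated data. Hairpins were folded with RNAfold (ViennaRNA 2.7.2). RefSeq sequences matched 2281 of 2588 entries, 606 of 686 with reads. Library pairs with identical values numbered 0.

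The members and lists were chosen with earlier results of these data known. Entries named are the pair, the 5 most correlated with it, transfer RNA-like and same-seed entries with at least 10 reads, the pairs of extreme span, and the 2 neighbours on each side by abundance. Others were named after their values were seen. Alternatives covered scaling, pseudocount, filter, denominator, thinning, replicate block and leaving out libraries.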

Additional observations from a re-analysis of the deposited data

How the results depend on the processing

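No alternative turned the direction of either log2 difference, which the choice of the entries had all but fixed. For miR-1260a and miR-1260b it was 5.35 and 6.13 under limma-voom with upper-quartile factors, 6.09 and 6.84 with a pseudocount of 10, 3.47 and 4.20 with 100, and 5.04 and 5.58 without siCTL 1 and siCTL 2 together. A larger pseudocount shrinks differences from 0 by construction; for the other settings the cause was not tested. Leaving out 1 library gave 7.56 to 10.08 and 8.25 to 10.93. The median over the tested entries was 1.72, against 2.57 under library totals, 0.38 with upper-quartile factors and −1.15 without siCTL 1 and siCTL 2. The filter of 4 libraries removed both entries and gave no value for them.

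The mean combined share in siPRDX3 was 0.920% without miR-4451 reads and 2.39% without the 10 most abundant entries, where siCTL had 0.00741%; a smaller denominator raises shares by construction. Leaving out 1 library gave 0.492% to 0.645% in siPRDX3 and 0% to 0.00361% in siCTL. The share of miR-1260a in the pair was 32.1% to 51.2%.

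The 0 calls became 1, miR-1260b, with TMM factors over tested entries (added after seeing the data), and ran from 0 to 20 on leaving out a library. As miR-1260b was picked for this contrast, its call is no test of it. The 6 entries with every siPRDX3 library above were 10 as shares and 1 with the filter of 4 libraries, and 6 to 33 on leaving out a library, with 10 without siPRDX3 3 and 33 without siCTL 3. The replicate block kept 8.40 and 9.14, as it must in a balanced design, with 0 calls. Same-numbered libraries deviated together at −0.24, 0.18 and 0.14, so the numbers were not taken as pairs.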

Other observations

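Besides miR-1260a and miR-1260b, 12 tested entries have at most 19 bases, of which 6 had log2 differences above 0 and 6 below, with 0 called. Over all 80 tested entries 51 lay above 0 and 29 below. Their median difference was 0.33, against 1.72 over all 80 tested entries. miR-7704, with 19 bases, had 6971, 2909 and 3402 reads in siPRDX3 1, 2 and 3 and 0, 442 and 10613 in siCTL 1, 2 and 3. miR-4443, with 17 bases, had 1008, 6 and 2 reads in siPRDX3 and 1216, 11 and 31 in siCTL.

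Entries listed as resembling other structural RNAs, such as small nuclear and ribosomal RNA, had reads in every library when summed. A few of them supplied most of these reads, and in siCTL 1 miR-1290 alone had 2185 of 2233. Of the 12 on the list 11 had reads, and 6 were tested, with 4 log2 differences above 0, 2 below and 0 called, a split close to that over all tested entries. Their median was 2.28, against 1.72 over all tested entries. Together they took 5.48% to 6.57% of siPRDX3 reads and 2.21% to 12.1% of siCTL reads.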
